A study of Mus musculus with 4 samples.

Results

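The translation initiation and elongation factor genes were taken as the RefSeq protein-coding genes whose symbols begin with Eif and a digit from 1 to 6, or with Eef and 1 or 2. This rule found 71 genes among the 21887 protein-coding genes of mouse chromosomes 1 to 19, X and Y. Binding was mapped by chromatin immunoprecipitation and sequencing in thymus of mice aged 4 weeks that were homozygous for the germline p53 AD allele, whose protein forms dimers. Antibodies to p53 were used in 2 libraries, read at 50 nt, and an antibody to PPAR-alpha, a nuclear receptor for fatty acids, in 1 library, read at 75 nt. All groups carried the same genotype, so no mouse with wild-type p53 is compared here, and antibody and read length cannot be told apart. An input library of the same tissue, read at 50 nt, is not analysed here.

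The factors encoded by these genes carry out the first and the repeating steps of protein synthesis. The eIF2 trimer brings the initiator tRNA to the small ribosomal subunit, eIF3 is the large scaffold on that subunit, and the eIF4 factors bind the mRNA cap and unwind the leader. Elongation factor eEF1A then delivers each aminoacyl-tRNA, its exchange factors reload it with GTP, and eEF2 moves the ribosome along the mRNA. Dividing thymocytes make protein at a high rate, and the eIF2 kinases and the eIF4E-binding proteins slow initiation under stress or low nutrients.

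Each library is given as a list of summits, a summit being the position inside a peak where the reads stack highest. A summit's score was taken to be a −log10 significance value, so a larger score means a peak less likely under the caller's background. PPAR-alpha had 4070 summits with a median score of 4.70, p53 replicate 1 had 3608 with a median of 3.99, and p53 replicate 2 had 4767 with a median of 3.62. Read depth is unknown. Thymocyte marker genes lay within 5 kb of a summit in 12 of 15 cases in p53 replicate 1, 14 in replicate 2 and 12 in PPAR-alpha. None of 6 B cell markers and none of 5 thymic epithelium markers did so in any list. Of 5 myeloid markers, 1 did so in each list, Cd68 in both p53 replicates and Itgam in PPAR-alpha. Among genes outside the translation factors, 12.9%, 16.3% and 12.3% did so in p53 replicates 1 and 2 and PPAR-alpha. Against such shares, lists of 5 or 6 markers cannot show that a cell type is absent.

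How often did these genes carry a summit? Of the 71 genes, 37 (52.1%) had a summit within 5 kb of either gene end in at least 1 list, where 24.6% of the other 21816 protein-coding genes did. In p53 replicate 1 there were 21 such genes, or 29.6% (exact 95% interval 19.3 to 41.6%), beside 12.9% of the other genes. In p53 replicate 2 there were 22, or 31.0% (20.5 to 43.1%), beside 16.3%. In PPAR-alpha there were 18, or 25.4% (15.8 to 37.1%), beside 12.3%. The members' share was thus 2.29 times that of other genes in p53 replicate 1, 1.90 times in replicate 2 and 2.07 times in PPAR-alpha. Both p53 replicates had a summit at 10 genes, or 14.1% (6.97 to 24.4%), beside 7.94% of other genes. All 3 lists had one at 5, or 7.04% (2.33 to 15.7%), beside 4.86%. These last intervals include the share of the other genes and those of the single lists lie above it. The intervals cover counting error only, and no test was run on the shares, because genes are not replicates.

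Widening the window to 20 kb gave 28, 32 and 24 members in p53 replicates 1 and 2 and PPAR-alpha (other genes 20%, 24.8% and 19.4%), 17 in both p53 replicates (other genes 13.8%) and 10 in all 3 lists (other genes 9.29%).

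Most of these summits lay close to a gene end. Within 1 kb there were 18 members in p53 replicate 1 (25.4%, other genes 9.16%), 19 in replicate 2 (26.8%, other genes 11.8%) and 17 in PPAR-alpha (23.9%, other genes 8.75%). Both p53 replicates had such a summit at 7 members (9.86%, other genes 5.06%), and all 3 lists at 3 (4.23%, other genes 2.79%). Eef2 is among these 3 with its p53 summits at the 5′ end and its PPAR-alpha summit at the 3′ end. In all, 56 of the 68 distinct summits in the 5 kb windows lay within 1 kb of the member's end. The member nearest inside the 5 kb limit was Eif4a1 in p53 replicate 2, at 4353 bp, and the nearest outside it was Eif3g in the same list, at 6430 bp. At the 1 kb limit they were Eif4a1 in p53 replicate 1, at 992 bp, and Eif5b in that list, at 1092 bp.

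**Figure D1:**
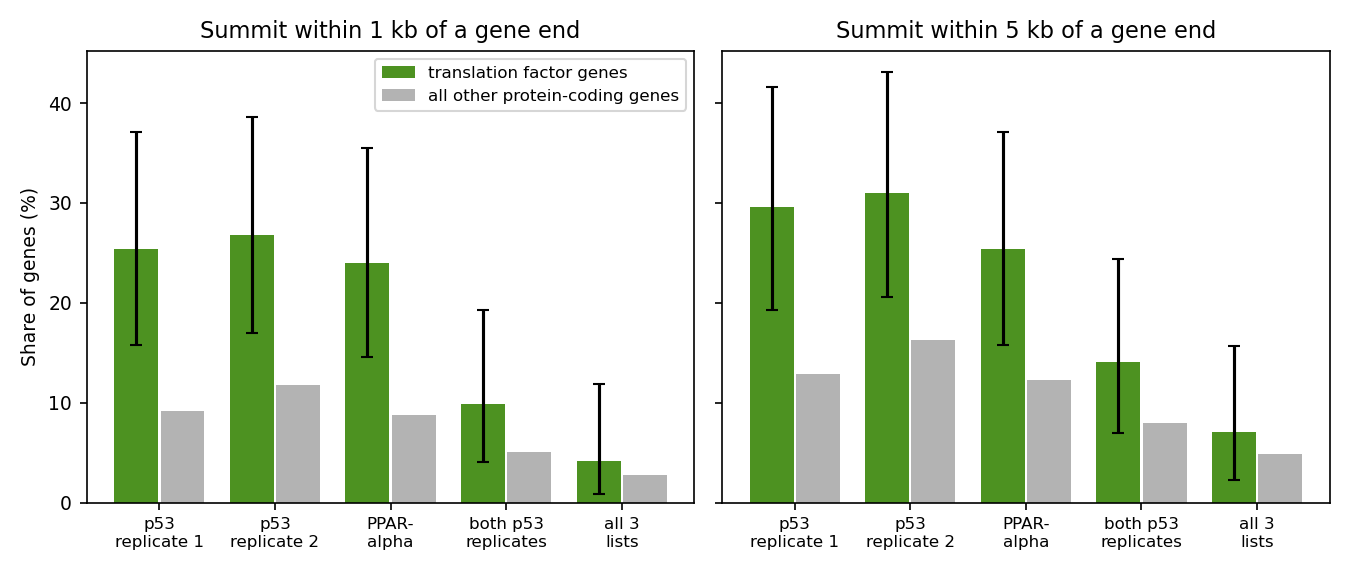
Share of genes (%) with a summit within 1 kb (left) or 5 kb (right) of either gene end, for the 71 translation factor genes (green, with exact 95% intervals for counting error) and the 21816 other protein-coding genes (grey). The green bars are higher in each set, but the intervals of both p53 replicates and of all 3 lists reach below the grey bars.

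The members have close neighbours more often than other genes, and in the p53 lists members with a neighbour had a summit more often than those without, while in PPAR-alpha these shares were 26.1% and 24.0%. Another protein-coding gene's end lay within 5 kb for 46 members (64.8%) and for 45.9% of the other genes. Among the genes with such a neighbour, 18, 17 and 12 of 46 members had a summit in p53 replicates 1 and 2 and in PPAR-alpha (39.1%, 37.0% and 26.1%), beside 18.9%, 24.4% and 18% of other genes. Among those with none, 3, 5 and 6 of 25 members had one (12%, 20% and 24.0%), beside 7.8%, 9.5% and 7.4%. In both p53 replicates the same split gave 9 of 46 members (19.6%, other genes 12%) and 1 of 25 (4.00%, other genes 4.54%), and in all 3 lists 4 of 46 (8.70%, other genes 7.46%) and 1 of 25 (other genes 2.65%). For 11 of the 68 summits the end of another gene was nearer than the member's own, and 22 had another gene's end within 1 kb. Which of the neighbours a summit belongs to was not tested.

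How far did the p53 lists repeat each other at these genes? The 10 members found in both were 47.6% of the 21 in replicate 1 and 45.5% of the 22 in replicate 2, and over all other genes these shares were 61.6% and 48.6%. PPAR-alpha had a summit at 9 of the 21 members of p53 replicate 1 and at 10 of the 22 of replicate 2, which were 50.0% and 55.6% of its own 18. These were 42.9% and 45.5% of the p53 members, and over other genes the overlap was 49.6% and 45.2% of the p53 genes and 52.2% and 60.3% of the PPAR-alpha genes, near the members' shares. At 6 of the 10 members found in both p53 lists, the p53 summits lay within 100 bp of each other, and these were Eef2, Eif1ad, Eif3d, Eif4a2, Eif4g3 and Eif4h. They were 8.45% of all 71 members, and 3.24% of all other genes had p53 summits that close, where 14.1% of members and 7.94% of other genes had both within 5 kb. Whether the same input served all 3 lists is not given in the sources used here, and if it did, they share it. Nothing in the labels says that the p53 libraries came from separate mice, so their differences may be technical.

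Most summits at these genes scored under 10, as did most summits of the lists. Distinct summits within 5 kb of a member numbered 22 in p53 replicate 1, 24 in replicate 2 and 22 in PPAR-alpha, with median scores of 4.70, 3.62 and 4.998. At the other genes the medians were 3.99, 3.62 and 4.70. Scores of 5 or more were reached by 40.9%, 37.5% and 50.0% of the member summits, beside 28.4%, 27.4% and 44.9% of those at other genes. Scores of 10 or more were reached by 2, 0 and 3 member summits, or 9.09%, 0% and 13.6%, beside 4.33%, 3.84% and 13.6% of the summits at other genes.

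**Figure D2:**
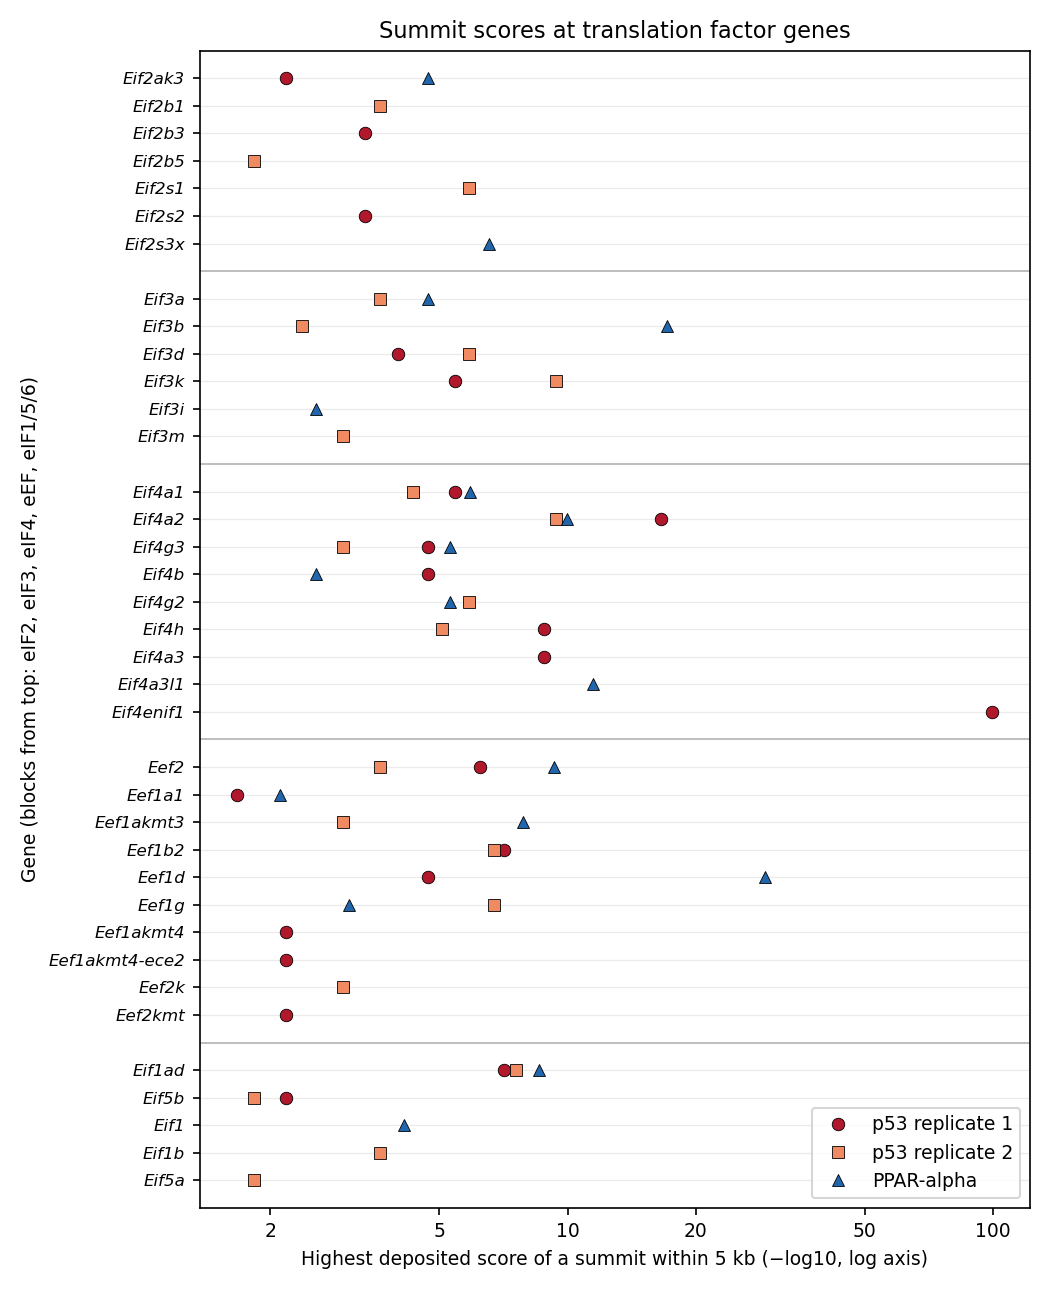
Highest deposited score of a summit within 5 kb (−log10, log axis) at each of the 37 translation factor genes with a summit in any list, in blocks for eIF2, eIF3, eIF4, eEF and the eIF1, eIF5 and eIF6 genes. Circles are p53 replicate 1, squares p53 replicate 2 and triangles PPAR-alpha. Eif1ad, Eif4a1, Eif4a2, Eif4g3 and Eef2 have all 3 symbols, and most symbols lie under 10.

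The eIF2 genes, 15 in all, had summits in 3 cases in each p53 replicate (20%) and 2 in PPAR-alpha (13.3%). In some list 7 had one (46.7%, exact interval 21.3 to 73.4%), beside 24.6% of other genes. Other genes had 12.9%, 16.3% and 12.3% in p53 replicates 1 and 2 and PPAR-alpha, inside the exact intervals of these shares (4.33 to 48.1% for 3 of 15). No eIF2 gene had a summit in both p53 replicates, and the exact 95% interval, up to 21.8%, includes the 7.94% of other genes. Of the trimer, Eif2s1, which encodes the alpha subunit that stress kinases phosphorylate, had a summit scoring 5.88 in p53 replicate 2, 132 bp from its start and 196 bp from an end of Atp6v1d. Eif2s2, for the beta subunit, had 3.34 in p53 replicate 1. Eif2s3x, for the X-linked gamma subunit, had 6.55 in PPAR-alpha, 231 bp before its start at position 94212882 of X, a chromosome where summits were scarce. Only 5, 7 and 9 of the 1219 other genes of X and Y had a summit within 5 kb in p53 replicate 1, replicate 2 and PPAR-alpha. Eif2s3y, its Y-linked copy, had none in any list.

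Among the genes of the exchange factor eIF2B, which reloads eIF2 with GTP, 3 of 5 had a summit, each in 1 list. The exact interval was 14.7 to 94.7%, and 24.6% of other genes had a summit in some list. Eif2b3 had 3.34 in p53 replicate 1, and Eif2b1 and Eif2b5 had 3.62 and 1.83 in p53 replicate 2. Of the 4 eIF2 kinase genes, Eif2ak3, for the endoplasmic reticulum stress kinase PERK, had a summit scoring 2.18 in p53 replicate 1 and one of 4.70 in PPAR-alpha, 431 bp apart. Eif2ak1, Eif2ak2 and Eif2ak4, for the heme, double-stranded RNA and amino acid sensing kinases, had none in any list. Eif2b4 had summits just beyond the window in all 3 lists, at 7533, 7527 and 7459 bp in p53 replicate 1, replicate 2 and PPAR-alpha.

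The 14 eIF3 genes had summits in 2 cases in p53 replicate 1 (14.3%), 5 in replicate 2 (35.7%) and 3 in PPAR-alpha (21.4%), beside 12.9%, 16.3% and 12.3% of other genes. The exact intervals, 1.78 to 42.8%, 12.8 to 64.9% and 4.66 to 50.8%, include the shares of other genes. Eif3d, for a subunit that can itself bind the cap of some mRNAs, had scores of 3.99 and 5.88 in p53 replicates 1 and 2, at positions 77970689 and 77970696 of chromosome 15, only 7 bp apart and 135 and 128 bp after its start. No PPAR-alpha summit lay within 117527 bp of it. Eif3k, for a subunit at the edge of the complex, had 5.45 and 9.40 in p53 replicates 1 and 2, at −681 and −182 bp from its start, where Map4k1 has an end 519 and 20 bp from those summits. Eif3a, for the largest subunit, had 3.62 in p53 replicate 2 and 4.70 in PPAR-alpha, 74 bp apart. Eif3b, for a core subunit, had 2.37 in p53 replicate 2 and 17.2 in PPAR-alpha, 215 bp after and 157 bp before its start. Eif3m (2.97, p53 replicate 2) and Eif3i (2.57, PPAR-alpha, with Tmem234 nearer) had 1 each. No eIF3 gene had a summit in all 3 lists, where 4.86% of other genes did, and a list of 14 genes cannot tell these shares apart (upper bound 23.2%).

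The 17 eIF4 genes had summits in 7 cases in p53 replicate 1 (41.2%), 5 in replicate 2 (29.4%) and 6 in PPAR-alpha (35.3%), beside 12.9%, 16.3% and 12.3% of other genes. The exact intervals were 18.4 to 67.1%, 10.3 to 56.0% and 14.2 to 61.7%, and that of replicate 2 includes the share of other genes. All 3 lists had a summit at 3 of them, Eif4a1, Eif4a2 and Eif4g3. All 5 genes of the helicase and its partners had one in some list (exact interval 47.8 to 100%, other genes 24.6%). In both p53 replicates 3 of the 5 had one (exact interval 14.7 to 94.7%, other genes 7.94%). Within 1 kb, 2 of the 5 did (other genes 5.06%), as the replicate 2 summit of Eif4a1 lay 4353 bp from that gene. None of the 4 cap-binding genes had a summit within 5 kb of either end in any list (upper bound 60.2%). With 4 or 5 genes a role these intervals overlap, and the difference was not tested. Distances are to gene ends, so a summit deep inside a long gene is not counted. Adding summits inside genes raised the eIF4 count in p53 replicate 2 from 5 to 6 (other genes 18.3%).

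Eif4a2, for a DEAD-box helicase that unwinds mRNA leaders, had scores of 16.6 in p53 replicate 1, 9.40 in replicate 2 and 9.995 in PPAR-alpha. These ranked 79 of 3608, 206 of 4767 and 652 of 4070, and lay 130, 189 and 270 bp after its start at positions 23107598, 23107657 and 23107738 of chromosome 16. The highest p53 score at a member with summits in both p53 replicates was thus in replicate 1 at this gene. Its near-identical paralog Eif4a1 had 5.45 in p53 replicate 1 and 5.91 in PPAR-alpha, 992 and 382 bp after its start. The p53 replicate 2 summit at Eif4a1, scoring 4.33, lay beyond the far end of the gene and 66 bp from an end of Mpdu1.

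Eif4h and Eif4b encode partners that stimulate the helicase. Eif4h had 8.81 and 5.08 in p53 replicates 1 and 2, 49 bp apart, and no PPAR-alpha summit within 128943 bp. Eif4b had 4.70 in p53 replicate 1 and 2.57 in PPAR-alpha, 270 bp apart, and no summit in p53 replicate 2. Eif4a3, for the helicase of the exon junction complex, had 8.81 in p53 replicate 1 alone. Eif4a3l1, an Eif4a3-like gene, had 11.5 in PPAR-alpha alone.

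Of the scaffold genes, Eif4g3 had 4.70 and 2.97 in p53 replicates 1 and 2, and 5.30 in PPAR-alpha. Both p53 summits fell on the same base, 137993604 of chromosome 4, and the PPAR-alpha summit lay 76 bp away, 148 and 224 bp after an annotated start inside the gene. Eif4g2, for a scaffold that lacks the cap-binding contact, had highest scores of 5.88 in p53 replicate 2 and 5.30 in PPAR-alpha. Its nearest p53 and PPAR-alpha summits were 249 bp apart, and that PPAR-alpha summit was another one, scoring 3.06. Eif4g1, the main scaffold gene, had none. Of the 4 genes of eIF4E-binding proteins only Eif4enif1, for a shuttling partner of eIF4E, had a summit, in p53 replicate 1 with a score of 99.5. That summit ranked 30 of 3608, lay 2650 bp outside the gene at position 3199693 of chromosome 11 and was nearer to Gm51877. No summit of the other lists lay within 9057 bp of either end of Eif4enif1.

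**Figure D3:**
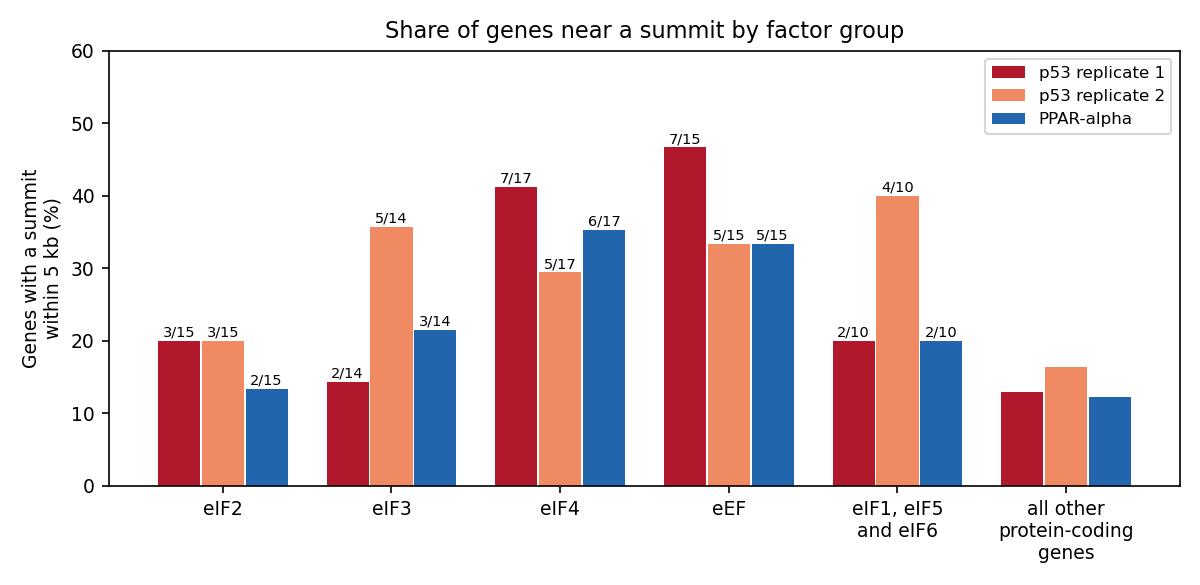
Share of genes (%) with a summit within 5 kb of either end, by factor group, in each p53 replicate and PPAR-alpha, with the number of genes above each bar. The right-hand bars are the 21816 other protein-coding genes. The eEF and eIF4 bars are the highest in p53 replicate 1 (7 of 15 and 7 of 17 genes) and eIF3 is the lowest of the factor groups there (2 of 14). The exact intervals are wide (21.3 to 73.4% for eEF and 18.4 to 67.1% for eIF4 in that list). Eef1akmt4 and its readthrough gene share 1 summit, and counting the nearest gene only gives 5 of 15 eEF and 6 of 17 eIF4 genes.

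The remaining initiation genes, 10 of the eIF1, eIF5 and eIF6 families, had summits in 2, 4 and 2 cases in p53 replicate 1, replicate 2 and PPAR-alpha (20%, 40.0% and 20%, beside 12.9%, 16.3% and 12.3% of other genes). The exact intervals, 2.52 to 55.6%, 12.2 to 73.8% and 2.52 to 55.6%, include the shares of other genes. Eif1ad, whose product contains an eIF1A-like domain, had summits of all 3 lists within a short stretch, with 7.07, 7.58 and 8.57 in p53 replicate 1, replicate 2 and PPAR-alpha. The p53 summits lay 105 and 30 bp before its start and the PPAR-alpha summit 29 bp before it, 1 bp from that of replicate 2. Banf1, a chromatin-binding factor gene, has an end 168, 93 and 92 bp from those summits. Eif5b, for the factor that joins the ribosomal subunits, had 2.18 and 1.83 in p53 replicates 1 and 2, 868 bp apart. The nearest end to the replicate 1 summit belonged to Txndc9. Eif1b (3.62) and Eif5a (1.83) had a summit in p53 replicate 2 alone, 5 and 78 bp before the start, and Eif1 (4.13) in PPAR-alpha alone. Eif5 and Eif6 had none.

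The eEF genes, 15 in all, had summits in 7 cases in p53 replicate 1 (46.7%), 5 in replicate 2 (33.3%) and 5 in PPAR-alpha (33.3%), beside 12.9%, 16.3% and 12.3% of other genes. The exact interval in p53 replicate 1 was 21.3 to 73.4%. In replicate 2 and in PPAR-alpha it was 11.8 to 61.6%, which includes the shares of other genes. In some list 10 eEF genes had a summit (66.7%, exact interval 38.4 to 88.2%), beside 24.6% of other genes. Eef2, for the translocase, had 6.24 in p53 replicate 1, 3.62 in replicate 2 and 9.27 in PPAR-alpha as its highest scores. These p53 summits lay 33 bp apart, 143 and 176 bp after its start at positions 81176774 and 81176807 of chromosome 10, and this PPAR-alpha summit 2143 bp after it. Another PPAR-alpha summit, scoring 4.13, lay 329 bp from the 3′ end of Eef2 and 149 bp from an end of Dapk3. The nearest gap between a p53 and a PPAR-alpha summit there was 1046 bp.

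Genes of the delivery factor and its exchange complex had summits in 4 of 6 cases (66.7%, exact interval 22.3 to 95.7%), each in 2 lists. Over other genes, 24.6% had a summit in some list and 12% in 2 or 3 lists. Eef1b2, for an exchange subunit, had 7.07 and 6.72 in p53 replicates 1 and 2, which lay 361 bp apart and were flanked by Ndufs1, and no PPAR-alpha summit within 941432 bp. Eef1d, for another exchange subunit, had 4.70 in p53 replicate 1 and 29.1 in PPAR-alpha, at position 75909419 of chromosome 15, rank 134 of 4070. That was the highest PPAR-alpha score at any member, and an end of Tigd5 lay 316 bp from it, nearer than the 365 bp to Eef1d. Eef1g had 6.72 in p53 replicate 2 and 3.06 in PPAR-alpha, 182 bp apart. Eef1a1, the main delivery factor gene, had 1.68 in p53 replicate 1, the lowest score in that list, and 2.11 in PPAR-alpha, 127 bp apart. Eef1a1 has processed copies elsewhere in the genome, and how reads were divided among them was not tested. Eef1a2, its muscle and neuron paralog, had none.

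Modifier genes of the elongation factors had summits in some list in 5 of 8 cases (62.5%, exact interval 24.5 to 91.5%), beside 24.6% of other genes. Eef1akmt3, for a lysine methyltransferase of eEF1A, had 2.97 in p53 replicate 2 and 7.88 in PPAR-alpha, 11053 bp apart at opposite ends of the gene, the first of them 38 bp from Tsfm. Eef2k, for the kinase that inhibits eEF2, had 2.97 in p53 replicate 2 alone. Eef2kmt had 2.18 in p53 replicate 1 alone. Eef1akmt4 and its readthrough gene Eef1akmt4-ece2 share a start and 1 summit (2.18, p53 replicate 1), for which Alg3 was nearer. Counted as distinct summits, these 2 genes are 1 case.

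Of the 37 genes with a summit, 18 had it in 1 list alone (25.4% of members, 12.6% of other genes), and these were 7 in p53 replicate 1 (scores 2.18 to 99.5), 7 in p53 replicate 2 (1.83 to 5.88) and 4 in PPAR-alpha (2.57 to 11.5). The other 34 members had none within 5 kb. Beside those already named they were Eif2a, Eif2d and Eif2b2 of the eIF2 genes, Eif3c, Eif3e, Eif3f, Eif3g, Eif3h, Eif3j1, Eif3j2 and Eif3l of eIF3, Eif4e, Eif4e2, Eif4e3, Eif4e1b, Eif4ebp1, Eif4ebp2 and Eif4ebp3 of eIF4, Eef1akmt1, Eef1akmt2, Eef1aknmt and Eef1e1 of eEF, and Eif1a, Eif1ax and Eif5a2.

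Where did the summits lie around the starts? RefSeq promoter entries, which give strand and start, exist in the table used for 31 of these 37 genes (83.8%). The nearest summit within 1 kb of the start was downstream of it in 12 of 17 members in p53 replicate 1, 11 of 18 in replicate 2 and 6 of 12 in PPAR-alpha (70.6%, 61.1% and 50.0%). At other genes the shares were 57.2%, 54.2% and 52.3%. The median position was 143, 125.5 and 97.5 bp after the start at members, and 53, 27 and 24 bp after it at other genes. In PPAR-alpha no member summit lay between −29 and 224 bp, so that median falls in a gap and marks no typical position. In p53 replicate 1 the summit at −735 bp counts for both Eef1akmt4 and its readthrough gene. Within 1 kb of the 5′ end a summit lay at 16, 17 and 11 of 55 members with known strand, and within 1 kb of the 3′ end at 0, 0 and 2. Over other genes the shares were 8.91%, 11.7% and 8.48% at the 5′ end, where members had 29.1%, 30.9% and 20%, and 0.671%, 0.849% and 0.866% at the 3′ end, where few summits lay at members or other genes.

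**Figure D4:**
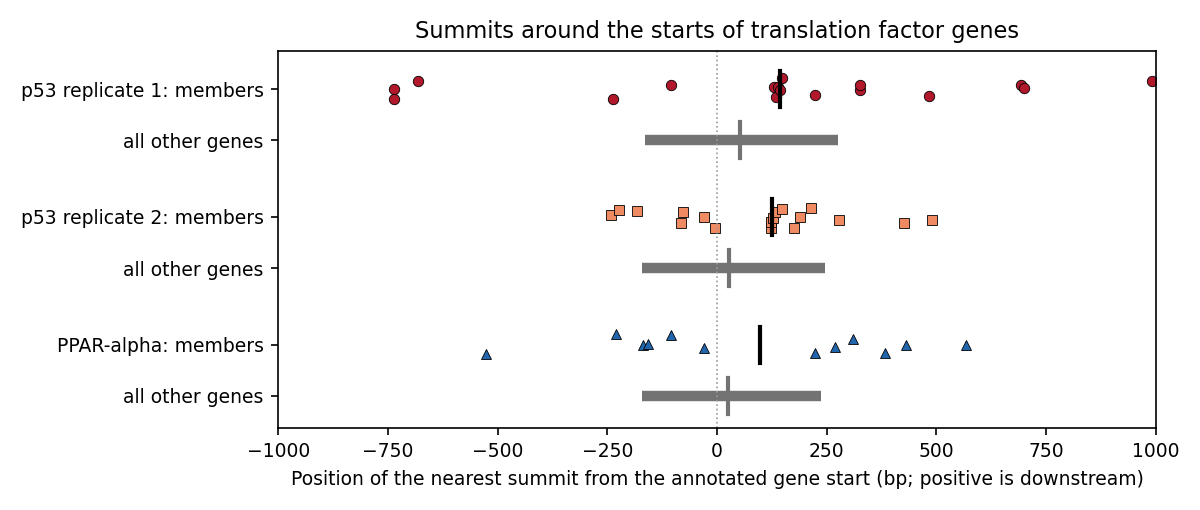
Position (bp) of the nearest summit from the annotated start, positive downstream, for translation factor genes with a summit within 1 kb of the start (points, black line at the median), in both p53 replicates and PPAR-alpha. Grey bars span the quartiles of all other genes, with their median. The medians at members lie between 97.5 and 143 bp and those of other genes between 24 and 53 bp. In PPAR-alpha no member's point lies between −29 and 224 bp, the gap that holds its median.

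Promoter sequences are shown for 5 genes on which the summits bear, from 250 bases before the start to 50 after it, from RefSeq on GRCm38.p6, written 5′ to 3′ along the gene's strand. Eif1ad and Eif3a are the 2 members with summits of at least 2 lists inside this window. Eif3b, Eif3k and Eif4a2 were chosen after their values were seen. Eif3b holds the highest-scoring PPAR-alpha summit inside the window and Eif3k that of p53 replicate 2, and the summits of Eif4a2, which had the highest p53 score at a member found in both replicates, lie past the window's end. Capitals mark matches on either strand to any motif searched. These were the CCAAT box (CCAAT), the TATA box (TATAAA), the GC box (GGGCGG), the ETS motif (CCGGAAG), the E box (CACGTG), the NRF1 motif (GCGCA followed directly by TGCGC), the YY1 motif (AAGATGGC), the PPAR direct repeat (AGGTCA, any base, AGGTCA) and the degenerate decamer of the p53 response element. In Eif1ad (chr19:5366563-5366862, plus strand) the summits fall on bases 146, 221 and 222 of the printed run in p53 replicate 1, replicate 2 and PPAR-alpha. In Eif3a (chr19:60790644-60790943, minus strand) they fall on bases 9 and 83 in p53 replicate 2 and PPAR-alpha. In Eif3b (chr5:140419055-140419354, plus strand) the PPAR-alpha summit falls on base 94, in Eif3k (chr7:28981839-28982138, minus strand) that of p53 replicate 2 falls on base 69, and the run of Eif4a2 is chr16:23107218-23107517 on the plus strand.
Eif1ad: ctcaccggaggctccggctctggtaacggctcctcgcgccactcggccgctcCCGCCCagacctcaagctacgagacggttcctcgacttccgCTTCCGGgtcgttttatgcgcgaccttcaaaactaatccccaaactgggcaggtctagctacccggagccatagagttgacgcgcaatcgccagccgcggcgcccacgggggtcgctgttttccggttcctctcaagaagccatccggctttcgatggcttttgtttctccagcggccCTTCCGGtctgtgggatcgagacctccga
Eif3a: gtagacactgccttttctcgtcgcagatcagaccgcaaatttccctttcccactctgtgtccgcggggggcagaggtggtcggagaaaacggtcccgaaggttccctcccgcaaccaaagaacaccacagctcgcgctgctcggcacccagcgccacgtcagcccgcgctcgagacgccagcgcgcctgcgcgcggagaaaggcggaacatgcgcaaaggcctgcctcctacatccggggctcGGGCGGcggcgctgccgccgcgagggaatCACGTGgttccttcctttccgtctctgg
Eif3b: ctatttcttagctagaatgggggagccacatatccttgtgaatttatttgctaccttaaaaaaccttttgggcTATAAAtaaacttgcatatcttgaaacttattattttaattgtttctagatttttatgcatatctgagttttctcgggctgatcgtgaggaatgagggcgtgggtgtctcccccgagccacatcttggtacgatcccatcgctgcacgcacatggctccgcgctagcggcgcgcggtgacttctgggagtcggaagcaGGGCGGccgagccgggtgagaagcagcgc
Eif3k: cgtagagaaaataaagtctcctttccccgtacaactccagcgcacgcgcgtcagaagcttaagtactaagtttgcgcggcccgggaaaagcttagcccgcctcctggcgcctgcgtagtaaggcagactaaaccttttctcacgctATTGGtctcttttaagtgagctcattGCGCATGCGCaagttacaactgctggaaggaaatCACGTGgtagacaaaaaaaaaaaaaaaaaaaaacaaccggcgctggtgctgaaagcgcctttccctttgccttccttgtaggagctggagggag
Eif4a2: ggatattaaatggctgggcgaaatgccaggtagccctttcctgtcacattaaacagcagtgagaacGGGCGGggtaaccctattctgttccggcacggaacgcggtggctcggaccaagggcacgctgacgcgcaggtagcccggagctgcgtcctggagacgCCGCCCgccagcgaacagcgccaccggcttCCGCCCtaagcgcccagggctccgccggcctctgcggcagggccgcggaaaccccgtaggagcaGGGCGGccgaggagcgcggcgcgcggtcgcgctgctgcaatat

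The GC box occurs 4 times in Eif4a2, and the ETS motif lies in Eif1ad 157 bases before the start and 21 after it. The E box of Eif3k lies 44 bases before its start and that of Eif3a 22 after it. None of these 5 windows holds the p53 decamer or the PPAR repeat, which says only that these letters are not in them.

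Across the 31 genes with a summit and a promoter entry, the E box occurred in 9 of 31 promoters (29.0%), where 9.94% of other genes with a summit and 7.85% of all 17437 other genes with a promoter entry held it. The GC box occurred in 21 of 31 (67.7%), beside 64.0% of other genes with a summit and 46.2% of all others, and CCAAT in 9 (29.0%), beside 37.1% and 39.0%. The p53 decamer occurred in 1 of 31 (3.23%), beside 6.22% and 7.35%, and the PPAR repeat in 0, beside 0.0227% and 0.0516%. Members without a summit were not compared, because fewer than 80% of them have an entry. Whether the E box is as frequent in their promoters was therefore not tested, and no test was run on these shares. The E box is the sequence bound by MYC and its relatives. The matches are printed with up to 10 bases on either side, and Eef1akmt4 and Eef1akmt4-ece2 share theirs, so 8 distinct promoters hold them. On GRCm38.p6, from RefSeq, these runs are chr16:20611499-20611524 (Eef1akmt4), chr10:81176578-81176603 (Eef2), chr7:120842790-120842815 (Eef2k) and chr9:120492572-120492597 (Eif1b) on the plus strand and chr19:60790656-60790681 (Eif3a), chr7:28981917-28981942 (Eif3k), chr11:69672597-69672622 (Eif4a1) and chr5:134639490-134639515 (Eif4h) on the minus strand. Capitals mark the E box.
Eef1akmt4: acggaagttcCACGTGtttgtgtgga
Eef2: ccggcgccgtCACGTGacgcacccaa
Eef2k: cggggacggcCACGTGagcccgggcg
Eif1b: tgcggacggtCACGTGgcggcggcgc
Eif3a: gcgagggaatCACGTGgttccttcct
Eif3k: ggaaggaaatCACGTGgtagacaaaa
Eif4a1: atcgcctccgCACGTGtaaaggtgct
Eif4h: gccgccgcacCACGTGggccgcagag

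Counted from the start, the first base of the match lay at −92 in Eef1akmt4, −43 in Eef2, −31 in Eef2k, −24 in Eif1b, −44 in Eif3k, −189 in Eif4a1, −96 in Eif4h and 22 in Eif3a. The nearest summit was 16 bp from the match in Eif1b and 54 bp in Eef2k, both of p53 replicate 2, 140 to 192 bp in Eif3k, Eef2 and Eif3a, and 370 to 646 bp in Eif4h, Eif4a1 and Eef1akmt4. A match describes the sequence and is not evidence of a site.

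Other genes of protein synthesis were counted for comparison, and their counts are to be read beside the 12.9%, 16.3% and 12.3% of all genes outside the translation factors that had a summit in p53 replicates 1 and 2 and PPAR-alpha. For both p53 replicates and for all 3 lists, the shares of those genes were 7.94% and 4.86%. Members whose mRNAs carry a 5′ terminal oligopyrimidine tract, through which mTOR signalling controls their translation, had summits in 5, 3 and 5 of 9 cases in p53 replicate 1, replicate 2 and PPAR-alpha, while Eif3e, Eif3f and Eif3h among them had none. Cytosolic ribosomal protein genes had 38, 54 and 23 of 79 (48.1%, 68.4% and 29.1%), and 44.3% had one in both p53 replicates, beside 14.1% of the translation factor genes. Cytosolic aminoacyl-tRNA synthetases and their scaffolds had 9, 10 and 6 of 22, with 8 in both p53 replicates and 6 in all 3 lists. Vars, for the valyl-tRNA synthetase, had scores of 14.6, 17.4 and 11.5 in p53 replicate 1, replicate 2 and PPAR-alpha, and Aimp1, a scaffold of the synthetase complex, 18.7, 16.4 and 11.5.

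Genes that signal to initiation had summits in 7, 11 and 4 of 16 cases. Rps6kb1, for the ribosomal S6 kinase, had 6.24, 15.3 and 13.8 in p53 replicate 1, replicate 2 and PPAR-alpha. Mlst8, for a subunit of the mTOR complexes, had 3.34, 6.72 and 16.3, and Atf4, the transcription factor made when eIF2 is phosphorylated, had 3.99, 6.72 and 3.58. Genes of mRNA binding and scanning had 2, 2 and 4 of 9, among them Pdcd4, an inhibitor of the eIF4A helicase, in all 3 lists (3.99, 2.97 and 3.58). Termination and recycling genes had 0, 2 and 1 of 6, and mitochondrial translation factor genes 2, 4 and 0 of 9. These lists differ in size, share neighbours and were not tested against each other.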

How the data were processed

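The authors deposited, for each of 3 ChIP libraries separately, a list of summits with a score, which the layout and range of the values mark as −log10 (of a p-value or a q-value, not known which). Per the submitters' processing notes the tools were MACS2 2.1.2, Bowtie2 2.3.4.2 and Picard 2.9.0, with no settings listed. The calling threshold, the control and the depth of the libraries were not given in the sources used here. Those notes name GRCh38, a human build, for mouse tissue. On the RefSeq table of GRCm38.p6, 49.2%, 49.0% and 42.0% of the summits of p53 replicate 1, p53 replicate 2 and PPAR-alpha lay within 1 kb of a gene end, and 6.38 to 8.20% after moving them by 5 to 50 kb, so GRCm38 was used. Positions count from 1.

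A gene was counted when a summit lay within 5 kb, or 1 kb, of either end. Both p53 replicates means a summit of each in the window, at any distance from each other. Shares have exact Clopper-Pearson 95% intervals (scipy 1.17.1, Python 3.11.15). Named genes were all members with a summit in 2 or more lists, with values in each, and those with 1 by their score. Members, lists, motifs and windows were chosen with earlier results of these data known. With no counts and 1 PPAR-alpha library, no test between libraries was possible. The counting was tested on simulated data and found 100 of 100 planted genes. These were genes far from any other gene's end, so summits between close neighbours were not tested. Alternatives were other windows, score minimums of 5 and 10, the nearest gene only, summits inside genes, dense runs (10 or more summits of 1 list in 100 kb) left out, autosomes, 1 replicate, and summits within 100 or 500 bp.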

Additional observations from a re-analysis of the deposited data

How the results depend on the processing

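Under 48 alternatives to the 5 counts of genes near a summit, the share of translation factor genes exceeded that of other genes in 45, by 1.16 to 3.91 times. The other 3 were scores of 10 or more in p53 replicate 2, in both p53 replicates and in all 3 lists, where 0 members remained, beside 0.802%, 0.330% and 0.220% of other genes. All 48 recount the same genes and summits, so their number is no measure of support. Leaving a p53 replicate out of the count of both repeats the main count of the other replicate. The split by neighbours is not among the 48, and there 1 of 25 members without a close neighbour had both p53 replicates (4.00%, other genes 4.54%). Counts moved by more than 1.5 times as follows. With scores of 5 or more they were 9 in p53 replicate 1, 9 in replicate 2, 11 in PPAR-alpha, 5 in both p53 replicates and 2 in all 3 lists. In that order these were 12.7%, 12.7%, 15.5%, 7.04% and 2.82% of members, beside 4.16%, 5.29%, 6.04%, 1.95% and 1.15% of other genes. With scores of 10 or more, 2 members remained in p53 replicate 1 (2.82%, other genes 0.720%) and 3 in PPAR-alpha (4.23%, other genes 2.03%). Within 20 kb, 17 had a summit in both p53 replicates (other genes 13.8%) and 10 in all 3 lists (other genes 9.29%). Within 1 kb, 3 had one in all 3 (other genes 2.79%). Requiring summits within 100 bp of each other gave 6 in both p53 replicates (8.45%, other genes 3.24%). The same limit gave 2 in all 3 lists (2.82%, other genes 1.21%). A limit of 500 bp gave 3 in all 3 lists (4.23%, other genes 3.397%). Leaving out a p53 replicate gave 21 to 22 in place of 10 for both (other genes 12.9 to 16.3%), and 9 to 10 in place of 5 for all 3 lists (other genes 6.40 to 7.39%). Of 240 alternatives to the counts by factor group, 163 stayed within 1.5 times, and of 152 to the number of lists at a named gene, 115 did. Counting the nearest gene alone left 4 members in all 3 lists (5.63%, other genes 3.23%). Why counts moved was not tested beyond the fewer or more summits that each setting admits. No paired analysis was possible because the PPAR-alpha antibody has 1 library and the groups share fewer than 2 replicate numbers. Depth is unknown and limits what an absent summit means: a gene without one was not called, and binding there was not measured.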
